A study of Mus musculus with 4 samples.

Results

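The genes described here run mitosis: the cyclins and Cdk1 that start it, the spindle kinesins, the kinetochore and checkpoint proteins that attach chromosomes to the spindle, and the proteins that split the cell. A list of 45 genes was matched by symbol to every probe set of the array, and 44 were measured, by 93 probe sets, among 18193 genes measured in all. Ccnb1 was named by no probe set of the annotation used here and has no value. By their titles the samples were mouse endothelial cells differentiated from induced pluripotent stem cells (iPSCs). There was 1 array for each of 4 mice aged 24 weeks: 2 healthy controls and 2 made obese by diet (diet-induced obesity, DIO). The labels call the samples biological duplicates. Strain, sex, diet and iPSC lines per mouse were not stated there, so p-values measure the spread between these samples, which may be partly technical. The labels name iPSC as the cell type, although the titles name endothelial cells, and they mention no sort. The 18 endothelial markers averaged between 6.07 and 6.44 on the 4 arrays. By their mean over the arrays, 6 of the 18 lay above the median of 7.09 over all genes, from 7.21 for Eng to 8.87 for Esam, and 12 lay below it, down to 3.62 for Tie1. The 10 simple epithelial markers, such as Krt8 and Krt18, averaged between 12.27 and 12.36 on the 4 arrays. Levels of different probe sets are only roughly comparable and no detection calls were used, so these values show neither the presence nor the absence of a marker. Levels are the deposited log2 values, so a difference of 1 is a doubling, and a difference is the DIO mean minus the control mean.

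A cell enters mitosis when Cdk1, bound to cyclin B and freed of its inhibitory phosphates by Cdc25, phosphorylates its targets. Motor proteins of the kinesin family build the spindle, and the checkpoint proteins hold back the anaphase-promoting complex until every kinetochore is attached. That complex, with its activator Cdc20, then marks cyclin B and securin for destruction, separase opens the rings that hold sister chromatids together, and the cell divides. The transcripts of most of these genes peak late in the cell cycle, so in a culture their level depends on the share of cells that are dividing. In RNA from whole cultures, more dividing cells and more of a transcript per cell cannot be told apart.

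Mitosis genes had higher means in the DIO cells in 43 of the 44 cases, where 53.3% of all genes did. The median difference was 0.36, beside 0.02 over all genes, and single genes ran from −0.19 for Pttg1 to 0.76 for Kif18a. The DIO arrays both exceeded the 2 controls for 24 of the 44, or 54.5%, where 21.4% of all genes showed this pattern, and both lay below for 0. None of the 44 passed the test over all genes (limma, lowest adjusted p = 0.728), and neither did any other gene (0%). At an unadjusted p below 0.05 stood 9 of the 44 (Cdc20, Kif18a, Kif22, Nusap1, Bub1, Spc25, Kif20b, Ect2 and Mki67), each with a higher DIO mean, where 3.26% of all genes were higher at that level. Over all genes that level held 594 higher and 604 lower genes, and 724 and 501 once each array was centred on its median, or 768 and 472 after quantile normalization.

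**Figure D1:**
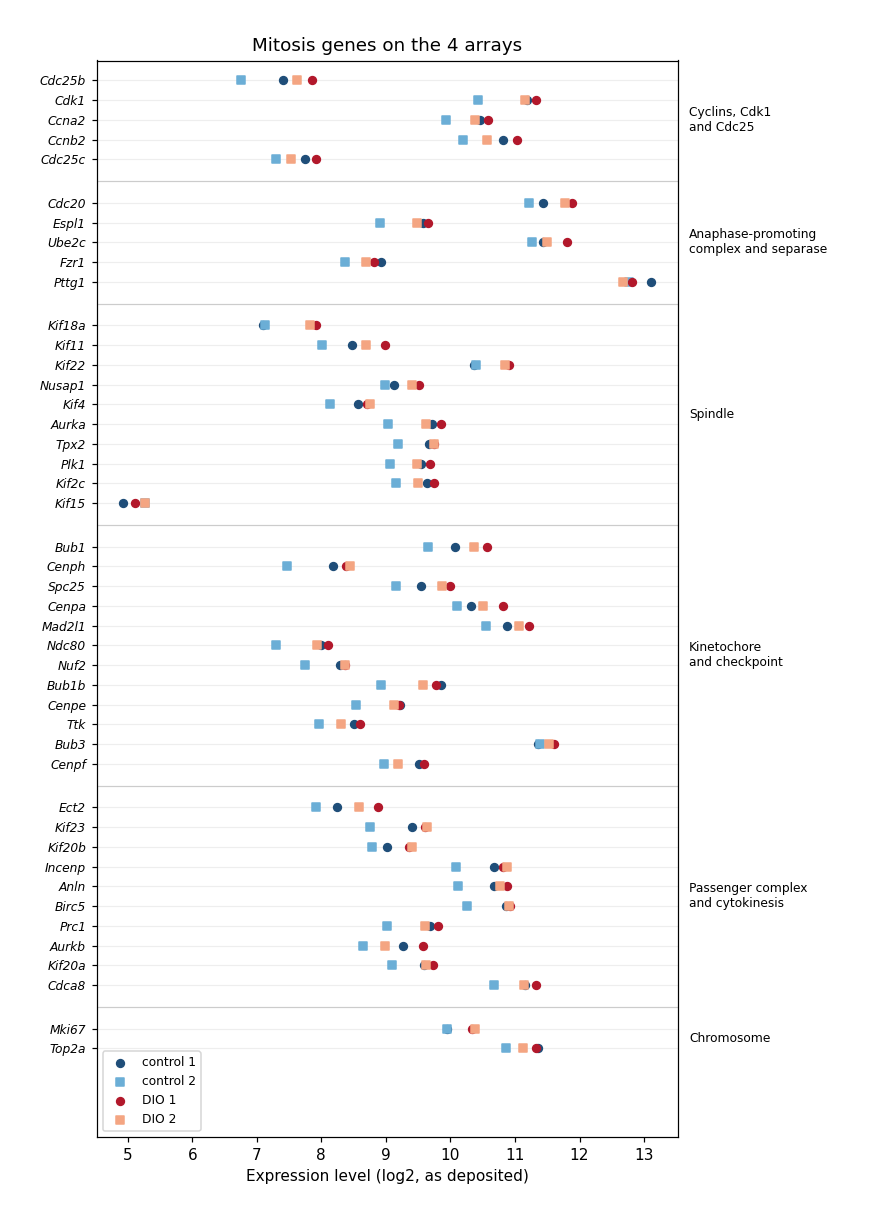
Level of each of the 44 measured mitosis genes on the 4 arrays (horizontal axis, log2 as deposited), grouped by role, with circles for mouse 1 and squares for mouse 2 of each group. Control 2 was the lowest array for 38 of the 44 genes and DIO 1 the highest for 31; levels of different genes come from different probe sets and are not comparable.

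The control arrays differed from each other for most of these genes. Control 2 was lower than control 1 for 39 of the 44, where 62.1% of all genes were lower, by a median of −0.49 beside −0.09 over all genes. In the DIO cells 36 of the 44 were lower on DIO 2 than on DIO 1, where 51.6% of all genes were, by a median of −0.15. Against control 2, each DIO array was higher for 43 of the 44, with medians of 0.67 for DIO 1 and 0.56 for DIO 2, where 61.1% and 59.1% of all genes were higher. Against control 1, DIO 1 was higher for 39, with a median of 0.17, and DIO 2 for 25, with a median of 0.07, where 46.8% and 44.2% of all genes were. Control 2 was thus the lower control for most of all genes too. The array medians over all probe sets were 5.63 for control 1 and 5.65 for control 2. Without control 2 the median difference of the 44 was 0.08 with 33 higher, or 75.0%, beside −0.03 and 45.1% over all genes. Without control 1 the median of the 44 was 0.59 with 42 higher, beside 0.08 and 11241 of 18193 over all genes. Both DIO arrays lay above control 1 for 25 of the 44, or 56.8%, beside 33.5% of all genes. They lay above control 2 for 42, beside 50.1% of all genes.

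**Figure D2:**
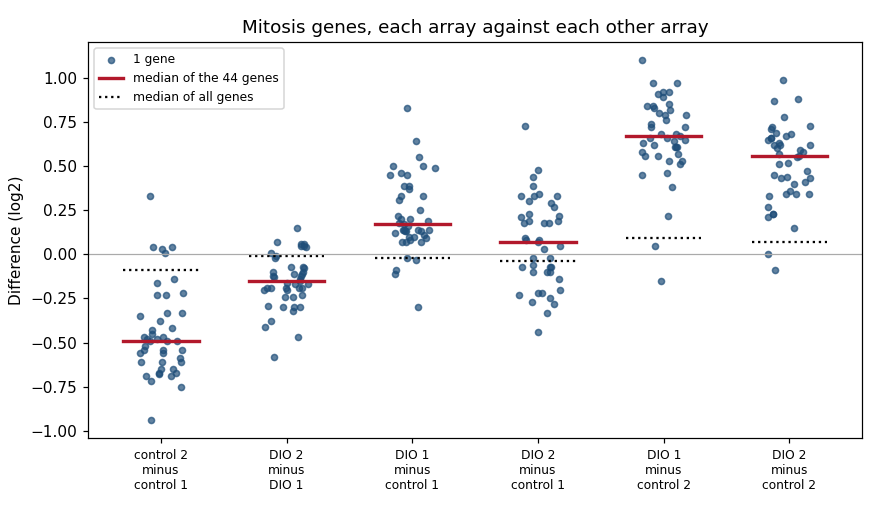
Difference between each pair of arrays (vertical axis, log2) for the 44 mitosis genes, 1 point per gene, with their median as a solid line and the median of all genes as a dotted line. The 4 comparisons of a DIO with a control array share arrays; the medians were 0.67 and 0.56 against control 2, and 0.17 and 0.07 against control 1.

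Markers of other cell states also differed between the arrays, and the means of epidermal and fibroblast markers were highest on control 2. Of 18 epidermal markers, 18 were highest on control 2, and their mean level was 6.75 on control 1, 11.44 on control 2, 7.60 on DIO 1 and 8.32 on DIO 2. The 10 fibroblast markers averaged 6.26 and 7.41 on the control arrays against 6.29 and 6.64 on the DIO arrays. Pluripotency markers went the other way: the 20 averaged 9.97 and 9.02 on the control arrays against 10.39 and 9.26 on the DIO arrays, and 18 were highest on DIO 1. Of the 20, 19 were lower on control 2 than on control 1, by a median of −1.09. Likewise 19 were lower on DIO 2 than on DIO 1, by a median of −1.15. Pou5f1, which keeps cells pluripotent, stood at 11.16 and 9.96 on the control arrays against 11.79 and 10.33 on the DIO arrays. The 44 mitosis genes averaged 9.61 and 9.17 on the control arrays against 9.83 and 9.68 on the DIO arrays, so that DIO 2 was near control 1 for mitosis genes and near control 2 for pluripotency genes. The 18S ribosomal RNA probe sets averaged 12.60 and 12.65 on the control arrays against 12.30 and 11.96 on the DIO arrays, and the 10 leukocyte markers averaged between 5.95 and 6.06 on every array. The part of these differences in the results on mitosis genes was not tested.

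**Figure D3:**
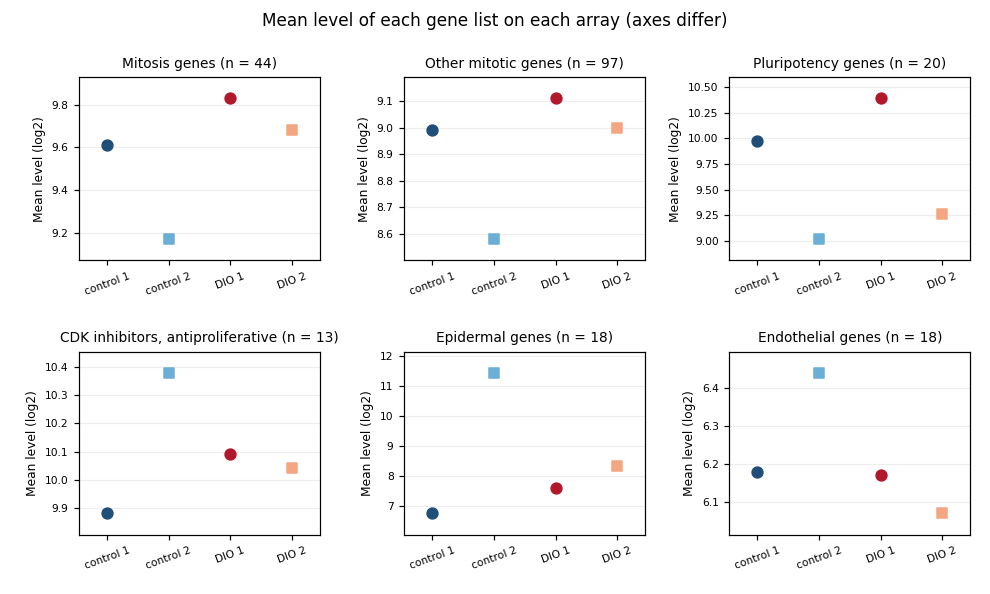
Mean level of 6 gene lists on each array (vertical axes, log2, with a range of its own in each panel), 1 point per array. Control 2 was lowest for mitosis genes (9.17), other mitotic genes (8.58) and pluripotency genes (9.02). It was highest for epidermal genes (11.44), CDK inhibitors (10.38) and endothelial genes (6.44). Of the single genes in these lists, 18 of 18, 8 of 13 and 7 of 18 were highest on control 2.

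Many promoters of late cell cycle genes carry a cell cycle homology region (CHR), which the DREAM complex binds, near the start of transcription, with CCAAT boxes, bound by NF-Y, upstream of it. Windows from 250 bases before to 50 after the start were available from RefSeq (GRCm38.p6) for 39 of the 45 genes, as 42 windows. They were searched on both strands for TTTGAA or TTCGAA as the CHR and for CCAAT, motifs whose matches can share an end base. A CHR was found in 32 of the 42 windows, or 76.2%, beside 19.2% of the 32851 windows of all genes. CCAAT was found in 31, or 73.8%, beside 37.4%, and both in 27, or 64.3%, beside 7.52%. The CHR matches had a median position of -17 and the CCAAT matches of -67, counted in bases from the start. Among the genes whose DIO arrays both lay above the controls, 15 of 23 windows held both motifs, and among those with overlapping arrays 12 of 18. A match describes the letters only. The 150 bases before the start are given for 4 genes that hold both motifs there, and for Kif18a, the gene with the largest difference, whose window holds neither; capitals mark the motifs, on either strand.
Cdk1 (chr10:69352913-69353062, minus strand): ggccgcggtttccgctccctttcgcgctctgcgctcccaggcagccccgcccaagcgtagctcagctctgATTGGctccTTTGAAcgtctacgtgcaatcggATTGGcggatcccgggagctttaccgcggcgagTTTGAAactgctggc
Cdc20 (chr4:118437344-118437493, minus strand): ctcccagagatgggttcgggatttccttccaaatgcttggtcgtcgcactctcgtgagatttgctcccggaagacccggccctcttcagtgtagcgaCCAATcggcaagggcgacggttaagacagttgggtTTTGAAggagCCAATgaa
Ube2c (chr2:164769779-164769928, plus strand): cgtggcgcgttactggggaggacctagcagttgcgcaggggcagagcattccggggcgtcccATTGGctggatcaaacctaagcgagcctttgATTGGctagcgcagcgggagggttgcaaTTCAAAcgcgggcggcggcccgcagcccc
Kif11 (chr19:37376232-37376381, plus strand): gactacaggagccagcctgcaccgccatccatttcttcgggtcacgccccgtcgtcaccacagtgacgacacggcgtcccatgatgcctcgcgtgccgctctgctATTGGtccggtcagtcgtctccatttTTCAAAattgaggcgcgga
Kif18a (chr2:109280588-109280737, plus strand): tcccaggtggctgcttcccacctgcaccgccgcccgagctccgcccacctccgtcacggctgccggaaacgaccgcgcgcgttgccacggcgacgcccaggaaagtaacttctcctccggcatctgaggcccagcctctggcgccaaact

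Cyclins, Cdk1 and Cdc25 phosphatases, which start mitosis, were higher on average in DIO for each of the 5 that were measured (median 0.29), without overlap for 1. That gene was Cdc25b, a phosphatase that activates Cdk1 at the start of mitosis, which stood at 7.41 and 6.76 on the control arrays against 7.86 and 7.63 on the DIO arrays, and the difference was 0.66 ± 0.27 (SE, 2 arrays per group). Its groups did not overlap, but the controls were about as far apart as the group means. Cdk1, the mitotic kinase, stood at 11.18 and 10.43 on the control arrays against 11.32 and 11.16 on the DIO arrays, and the difference was 0.44 ± 0.29. DIO 2 lay just below control 1. Ccnb2, a cyclin B that activates Cdk1, was at 10.81 and 10.20 on the control arrays against 11.03 and 10.56 on the DIO arrays. Ccna2, the cyclin of S phase and early mitosis, was at 10.45 and 9.93 on the control arrays against 10.58 and 10.38 on the DIO arrays. Both cyclins differed by 0.29, with DIO 2 between the controls. Cdc25c, the other phosphatase, differed by 0.19 ± 0.23. Without control 2 the median of the 5 was 0.03, with Ccnb2 at −0.02, Cdc25c at −0.03, Ccna2 at 0.03, Cdk1 at 0.06 and Cdc25b at 0.33; without control 1 the median was 0.59.

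Of 5 genes acting with or after the anaphase-promoting complex, 4 had higher DIO means (median 0.30), where 53.3% of all genes did. None of these 5 encodes a subunit of the complex. Its subunits among the further mitotic genes described below differed by −0.22 to 0.15. Cdc20, whose protein activates the complex at anaphase, was at 11.44 and 11.21 on the control arrays against 11.89 and 11.77 on the DIO arrays. Its difference of 0.50 ± 0.15 was a 1.42-fold higher level, with no overlap. All 3 of its probe sets had both DIO arrays above both controls, at 0.41, 0.50 and 0.59. Ube2c, the enzyme that supplies ubiquitin to the complex, was at 11.43 and 11.27 on the control arrays against 11.80 and 11.50 on the DIO arrays, and the difference was 0.30 ± 0.17 without overlap. Espl1, the separase, was at 9.58 and 8.91 on the control arrays against 9.65 and 9.48 on the DIO arrays, and the difference was 0.32 ± 0.27 with overlap. Fzr1, which activates the complex after mitosis, differed by 0.11 ± 0.23.

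Pttg1, the securin that restrains separase, was the exception, at 13.11 and 12.76 on the control arrays against 12.81 and 12.67 on the DIO arrays. The difference of −0.19 ± 0.18 left the groups overlapping (limma, adjusted p = 0.830). Of its 3 probe sets, 1 other also had a lower DIO mean, at −0.15, and the last was at 0.04. Without control 2 the median of the group of 5 was −0.01, with Fzr1 at −0.17, Espl1 at −0.01 and Cdc20 at 0.39. It was 0.15 without DIO 1.

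Spindle genes were higher on average in DIO for 10 of 10 (median 0.37), where 53.3% of all genes were. There was no overlap for 6, or 60.0%, beside 21.4% of all genes with both DIO arrays above both controls. The largest difference of all 44 genes was that of Kif18a, a kinesin that shortens microtubule ends and aligns chromosomes, at 7.09 and 7.13 on the control arrays against 7.92 and 7.82 on the DIO arrays. The difference of 0.76 ± 0.12 was a 1.70-fold higher level (limma, adjusted p = 0.728), and the lowest DIO array was 0.69 above the highest control. Its other probe set, dim at 3.20 and 3.23 on the control arrays against 3.25 and 2.87 on the DIO arrays, differed by −0.16, and the mean of both probe sets by 0.30. Kif11, the motor that pushes spindle poles apart, was at 8.48 and 8.01 on the control arrays against 8.98 and 8.69 on the DIO arrays, and the difference was 0.59 ± 0.23 without overlap. Its other probe sets differed by 0.24 and −0.02, with overlap.

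Kif22, a kinesin that binds chromosome arms, was at 10.36 and 10.40 on the control arrays against 10.91 and 10.84 on the DIO arrays, and the difference was 0.49 ± 0.12. The groups did not overlap and the controls were close together, but its other probe sets, at 0.38 and 0.25, had control 2 well below control 1 (8.22 and 7.58 against 8.85 and 8.09). The probe set used for Kif22, like those used for Cdc20, Aurkb, Incenp, Kif2c and Cdc25c, carries the suffix x, by which the manufacturer marks probe sets with probes that may match other transcripts. Tpx2, which targets Aurora A to the spindle, was at 9.66 and 9.19 on the control arrays against 9.75 and 9.74 on the DIO arrays, and the difference was 0.32 ± 0.20. Aurka, the Aurora A kinase of the spindle poles, was at 9.72 and 9.04 on the control arrays against 9.86 and 9.62 on the DIO arrays, and the difference was 0.36 ± 0.28 with overlap. Nusap1, a microtubule binder, differed by 0.42 ± 0.13, the chromosome kinesin Kif4 by 0.38 ± 0.19, the kinase Plk1 by 0.27 ± 0.22, the microtubule depolymerase Kif2c by 0.22 ± 0.22 and the kinesin Kif15 by 0.09 ± 0.17. Kif15 was dim, with a mean of 5.14, and the highest control equalled the highest DIO array at 5.26. The median of the 10 was 0.21 without control 2, with 9 higher and Kif2c at −0.02, and 0.54 without control 1, with Kif15 at −0.07.

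**Figure D4:**
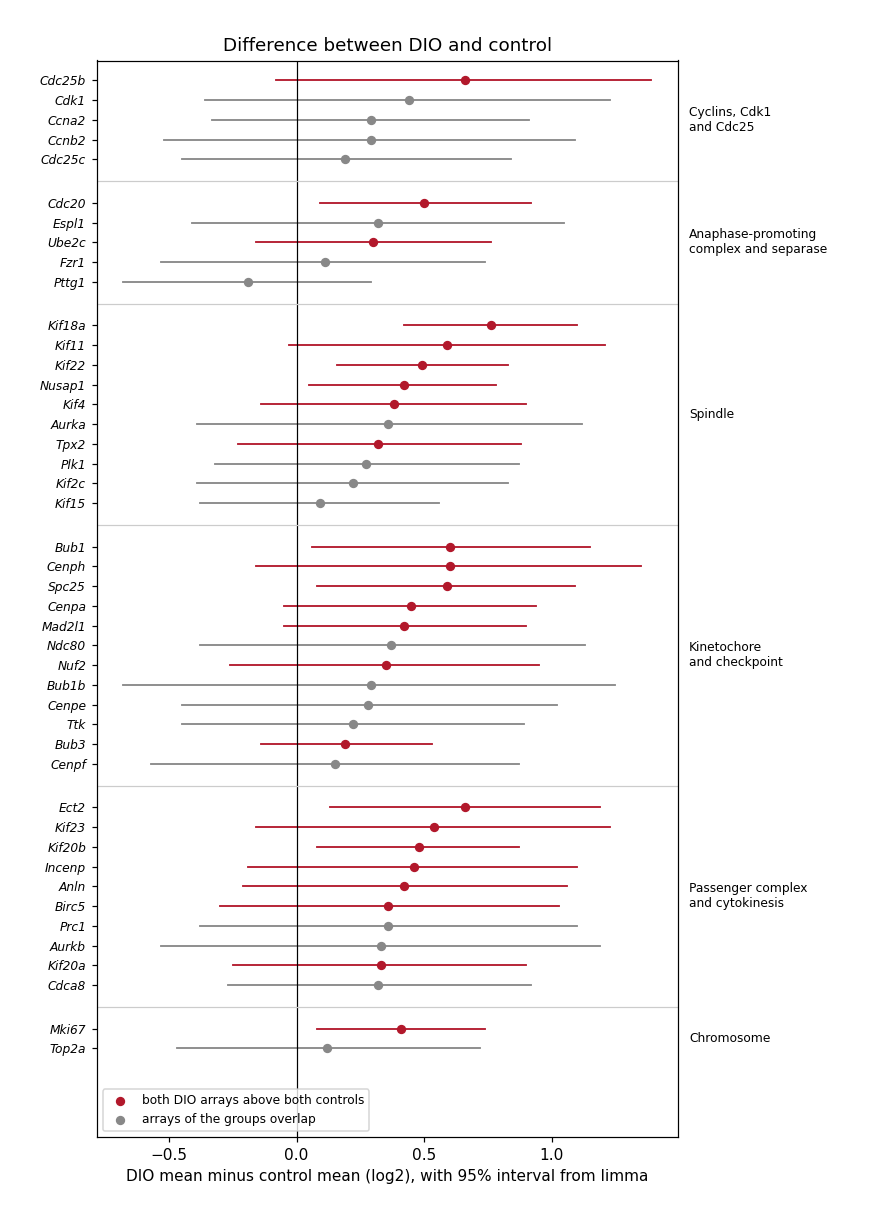
Difference between the DIO and control means of each gene (horizontal axis, log2), with its 95% interval from limma. Intervals that leave out 0 belong to 9 genes, and 24 genes, in red, had both DIO arrays above both controls.

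Kinetochore and checkpoint genes were higher on average in DIO for 12 of 12 (median 0.36), where 53.3% of all genes were. There was no overlap for 7, or 58.3%, beside 21.4% of all genes with both DIO arrays above both controls. Bub1, a checkpoint kinase, was at 10.07 and 9.65 on the control arrays against 10.56 and 10.37 on the DIO arrays, and the difference was 0.60 ± 0.20. Cenph, a protein of the inner kinetochore, was at 8.18 and 7.46 on the control arrays against 8.38 and 8.45 on the DIO arrays, and the difference was 0.60 ± 0.28. Spc25, a subunit of the Ndc80 complex that grips microtubules, was at 9.54 and 9.16 on the control arrays against 10.00 and 9.87 on the DIO arrays, and the difference was 0.59 ± 0.18. None of these 3 genes overlapped between the groups, and control 2 was the lowest array of each. The other subunits of that complex on the list, Ndc80 and Nuf2, differed by 0.37 ± 0.28 and 0.35 ± 0.22.

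Mad2l1, the checkpoint protein that binds Cdc20, was at 10.88 and 10.55 on the control arrays against 11.21 and 11.06 on the DIO arrays, and the difference was 0.42 ± 0.17 without overlap. Bub3, which recruits Bub1 to kinetochores, was at 11.35 and 11.38 on the control arrays against 11.60 and 11.53 on the DIO arrays. Its difference of 0.19 ± 0.12 was small but without overlap. Of the 4 other Bub3 probe sets, 2 differed by −0.11 each and the others by 0.07 and 0.17. Cenpa, the histone that marks the centromere, was at 10.32 and 10.10 on the control arrays against 10.82 and 10.50 on the DIO arrays, and the difference was 0.45 ± 0.18 without overlap; its other probe sets differed by 0.22 and −0.10. Cenpf, which loads onto kinetochores in late G2, was at 9.51 and 8.97 on the control arrays against 9.59 and 9.18 on the DIO arrays, and the difference was 0.15 ± 0.26. Its groups overlapped, and its other probe sets differed by −0.02 each.

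The remaining members overlapped: the checkpoint kinase Ttk at 0.22 ± 0.24, the checkpoint protein Bub1b at 0.29 ± 0.35 and the kinetochore motor Cenpe at 0.28 ± 0.27. A second Cenpe probe set was at 8.13 and 8.08 on the control arrays against 8.74 and 8.91 on the DIO arrays, and its difference of 0.72 had no overlap. The controls were apart on the first Cenpe probe set, at 9.22 and 8.53, and close on the second. Without control 2 the median of the 12 was 0.15, with Bub1b at −0.19, Cenpf at −0.12, Cenpe at −0.06 and Ttk at −0.05, and Bub1 at 0.40 and Spc25 at 0.39. Without control 1 the median was 0.62, and without DIO 1 Cenpf was at −0.06.

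Genes of the chromosomal passenger complex and of cytokinesis were higher on average in DIO for 10 of 10 (median 0.39), beside 53.3% of all genes. There was no overlap for 7, or 70.0%, beside 21.4% of all genes with both DIO arrays above both controls. Ect2, which activates RhoA at the site of the cleavage furrow, was at 8.24 and 7.91 on the control arrays against 8.88 and 8.58 on the DIO arrays, and the difference was 0.66 ± 0.19. Kif23, the kinesin of the centralspindlin complex, was at 9.41 and 8.76 on the control arrays against 9.60 and 9.64 on the DIO arrays, and the difference was 0.54 ± 0.26. Kif20b, a kinesin of late cytokinesis, was at 9.02 and 8.79 on the control arrays against 9.35 and 9.41 on the DIO arrays, and the difference was 0.48 ± 0.15. In these 3 genes the groups did not overlap. Anln, which organises actin and septins in the furrow, was at 10.68 and 10.12 on the control arrays against 10.88 and 10.77 on the DIO arrays, and the difference was 0.42 ± 0.23.

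Of the passenger complex, whose kinase Aurora B corrects faulty attachments, Birc5 (survivin) was at 10.86 and 10.25 on the control arrays against 10.93 and 10.91 on the DIO arrays, and the difference was 0.36 ± 0.24. Cdca8 (borealin) was at 11.16 and 10.67 on the control arrays against 11.33 and 11.14 on the DIO arrays, and the difference was 0.32 ± 0.22. In both, control 2 was far below 3 similar arrays. Incenp, the scaffold of the complex, differed by 0.46 ± 0.24, and its kinase Aurkb by 0.33 ± 0.32. A second Aurkb probe set differed by 0.69 with no overlap. Kif20a, a kinesin that carries the complex to the spindle midzone, and Prc1, which bundles midzone microtubules, differed by 0.33 ± 0.21 and 0.36 ± 0.27. Without control 2 all 10 members stayed above 0, but with a median of 0.11, from 0.02 for Prc1 to 0.50 for Ect2. Without control 1 the median was 0.68.

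Mki67, the proliferation antigen that coats mitotic chromosomes, and Top2a, the topoisomerase that untangles them, differed in pattern. Mki67 was at 9.94 and 9.95 on the control arrays against 10.33 and 10.38 on the DIO arrays, and the difference was 0.41 ± 0.12 (limma, adjusted p = 0.728). Its groups did not overlap, and the difference was 0.41 without control 2 and 0.40 without control 1. Top2a was at 11.35 and 10.86 on the control arrays against 11.32 and 11.13 on the DIO arrays, and the difference was 0.12 ± 0.22 with overlap. It turned to −0.12 without control 2, and its other probe sets differed by 0.00 and −0.20. Mki67, Kif18a, Kif22 and Bub3, named after their values were seen, were the 4 of the 44 genes whose control arrays lay within 0.1 of each other. In the probe sets used here control 2 stood 0.01 to 0.04 above control 1. Close controls make it easier for the groups not to overlap, so nothing is read from that pattern in these 4.

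The probe sets of a gene mostly shared a direction. Of the 93 probe sets, 83 had a higher DIO mean, where 51.6% of all probe sets that name 1 gene did, with a median of 0.29. The 44 used above held 43 of these and the 49 others 40, or 81.6%, with a median of 0.17. For the 27 genes with several probe sets, 20 had a higher DIO mean in each, and 7 were mixed: Bub3, Cenpa, Cenpf, Kif11, Kif18a, Pttg1 and Top2a. Tested 1 by 1 over all probe sets, 0 of the 93 passed (limma, lowest adjusted p = 0.617) and 15 had an unadjusted p below 0.05, where 8.04% of all probe sets did.

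Of 99 further mitotic genes that were not on the list, 97 were measured. Their DIO means were higher in 84 cases and lower in 13, with a median of 0.26. The share higher was 86.6%, beside 53.3% of all genes. None passed (limma, lowest adjusted p = 0.728). At an unadjusted limma p below 0.05 stood 10, each with a higher DIO mean, where 3.26% of all genes were higher at that level. The DIO arrays both exceeded the 2 controls for 39, or 40.2%, beside 21.4% of all genes, and were both below them for 2. With the smallest p among those higher were Depdc1a at 0.92 ± 0.13, the condensin subunit Ncapd3 at 0.61 ± 0.13 and Cks2, which binds Cdk1, at 0.60 ± 0.14. Depdc1a was dim, with a mean of 5.17, and the Ncapd3 difference was 0.04 with its probe sets averaged. Among those lower were the kinetochore protein Mis12 at −0.41 ± 0.20, the cohesin subunit Stag2 at −0.27 ± 0.20 and the anaphase-promoting complex subunit Anapc1 at −0.22 ± 0.16. Of these 97 genes 91 were lower on control 2 than on control 1, where 62.1% of all genes were. Without control 2 their median was 0.04 with 55 higher, or 56.7%, beside −0.03 and 45.1% over all genes. Without control 1 their median was 0.48, beside 0.08 over all genes.

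The 15 cell cycle transcription factor genes, E2F genes among them, had higher DIO means in 9 cases and lower in 6. Their differences ran from −0.72 to 0.69. The share higher was 60.0%, near the 53.3% of all genes. Their median was 0.11, or 0.01 without control 2. Lin54, the DREAM subunit that binds the CHR, was at 8.54 and 8.71 on the control arrays against 8.97 and 9.24 on the DIO arrays, and the difference was 0.49 ± 0.16. Lin9, another subunit, differed by −0.37 ± 0.16 and Lin37 by −0.13 ± 0.20, which turned to 0.07 without control 1. The E2F repressor E2f8 was at 10.28 and 10.42 on the control arrays against 9.32 and 9.94 on the DIO arrays, and the difference was −0.72 ± 0.25 without overlap. Its relative E2f7 differed by 0.35 ± 0.16 and E2f5 by 0.24 ± 0.12. None of the 15 passed (limma, lowest adjusted p = 0.728; 1 higher and 1 lower with an unadjusted p below 0.05).

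The 13 CDK inhibitors and antiproliferative genes differed between the controls in the direction opposite to the mitosis genes. On control 2, 10 of them were higher than on control 1, where 37.6% of all genes were, by a median of 0.49. Against control 1 the median was 0.08 for DIO 1 and 0.14 for DIO 2, and against control 2 it was −0.15 and −0.44. Over both controls 6 had higher and 7 lower DIO means, or 46.2% higher, beside 53.3% of all genes. Their median of −0.06 became 0.09 without control 2 and −0.35 without control 1, and 0.03 after quantile normalization. Cdkn1a, the p53-induced CDK inhibitor p21, was at 10.78 and 11.66 on the control arrays against 10.85 and 10.89 on the DIO arrays, and the difference was −0.35 ± 0.33, or 0.09 without control 2. The antiproliferative gene Btg2 differed by −0.35 ± 0.22 and the atypical cyclin Ccng2 by −0.47 ± 0.30, while Cdkn1c differed by 0.26 ± 0.19, Tob1 by 0.26 ± 0.22 and Ccng1 by 0.15 ± 0.18. None passed (limma, lowest adjusted p = 0.771; 0 with an unadjusted p below 0.05).

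Of the 18 endothelial markers, 8 had higher and 10 lower DIO means (median −0.1), or 44.4% higher, beside 53.3% of all genes. Those named for comparison, the adhesion molecule Pecam1, the cadherin Cdh5 and the receptor Kdr, differed by −0.46 ± 0.45, 0.29 ± 0.36 and −0.28 ± 0.21. With its probe sets averaged, Cdh5 differed by 0.04. With 2 arrays per group, the 95% interval of a mitosis gene extended 0.607 (median) on each side of its estimate, and an exact permutation test of 2 against 2 arrays cannot give a 2-sided p under 0.333.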

How the data were processed

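RNA of 4 samples was hybridized to Affymetrix mouse arrays after 3' IVT Express labelling, per the labels. The authors deposited log2 expression values per probe set, from 2.59 to 14.56, with array medians of 5.61 to 5.65. Their background correction, normalization and summary were not stated in the labels. The log2 scale was inferred from the range of values. No detection calls were used, so dimness is relative.

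Of 45101 probe sets, 64 controls were left out; 34945 had 1 symbol in the platform annotation, 932 several and 9160 none listed. By gene number 34741 matched RefSeq (GRCm38.p6) and 0 symbols changed. A gene was represented by its probe set with the highest mean. The groups were compared by lmFit and eBayes of limma 3.58.1 in R 4.3.3 (2-sided), with Benjamini-Hochberg adjustment over 18193 genes and a threshold of 0.05. The fit was tested on simulated data. Groups come from the sample titles.

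Members and lists were chosen with earlier results of these data known. Every measured member is named. Values on all arrays are given for the 3 highest means and 3 largest differences of each role group and for genes with probe sets of mixed sign; for each other pathway list, the 3 smallest p per direction are named, with Pou5f1, Pecam1, Cdh5 and Kdr among the markers. Alternatives were quantile normalization, median centring, a filter on dim genes (lowest 40%), probe sets averaged by gene or tested singly, eBayes with trend and robust settings, a replicate block and leaving out each array.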

Additional observations from a re-analysis of the deposited data

How the results depend on the processing

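The count of genes past the threshold was 0 under every alternative but 1: without control 1 it was 483, and 0 of the mitosis genes were among them (limma, lowest adjusted p = 0.0652; it was 0.387 without control 2 and 0.999 and 1.0 without DIO 1 or DIO 2). With an array left out, 1 group is a lone array assumed to vary like the other group, whose pair of arrays alone gives the spread, so the 483 calls rest on the DIO pair. The median difference of the 44 genes ran from 0.08 without control 2 to 0.59 without control 1, and the number with a higher DIO mean from 33 to 43. With each probe set tested, 83 of 93 were higher, 41 had both DIO arrays above both controls, and the median of Mki67 and Top2a was 0.06. The number of genes with both DIO arrays above both controls was 25 to 42 when an array was left out, where fewer arrays have to be separated, and 33 after quantile normalization. Leaving out each array in turn, group medians ran from 0.03 to 0.59 for cyclins, Cdk1 and Cdc25. They ran from −0.01 to 0.40 for genes acting with or after the anaphase-promoting complex and from 0.21 to 0.54 for the spindle. For the kinetochore the range was 0.15 to 0.62, for cytokinesis 0.11 to 0.68, and for Mki67 and Top2a 0.15 to 0.38. Other mitotic genes ran from 0.04 to 0.48, the transcription factors from 0.01 to 0.16 and CDK inhibitors from −0.35 to 0.09. The median of the CDK inhibitors was also 0.03 after quantile normalization.

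Quantile normalization, centring, the trended and robust eBayes and the filter on dim genes, which dropped Kif15, turned the direction of 0 mitosis genes, and averaging probe sets turned Top2a, to −0.03. Leaving out an array turned 10 genes without control 2, 1 without control 1 and 1 without DIO 1. Their ranges were −0.02 to 0.59 for Ccnb2, −0.03 to 0.42 for Cdc25c, −0.17 to 0.38 for Fzr1, −0.01 to 0.65 for Espl1, −0.02 to 0.47 for Kif2c, −0.07 to 0.26 for Kif15, −0.19 to 0.76 for Bub1b, −0.05 to 0.49 for Ttk, −0.06 to 0.63 for Cenpe, −0.12 to 0.42 for Cenpf and −0.12 to 0.37 for Top2a. Outside the list they were −0.32 to 0.07 for Lin37, −0.78 to 0.09 for Cdkn1a, −0.23 to 1.23 for Pou5f1, −1.03 to 0.11 for Pecam1 and −0.14 to 0.72 for Cdh5. The cause of these turns was not tested.

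The mouse numbers are of different animals and pair nothing by the labels. With the mouse number as a replicate block 0 genes passed, 43 of the 44 had a higher DIO mean, and the median stayed at 0.36; the differences between mouse 2 and mouse 1 correlated across all 18193 genes at 0.33 between the groups, where genes are not independent. The number of arrays and the lack of detection calls limit what dim probe sets such as that of Kif15 can show.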
